A study of Sus scrofa with 11 samples.

Results

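The genes that encode the proteasome were measured in the *M. semimembranosus*, a ham muscle, of Duroc gilts fed a low protein (LP) or a high protein (HP) diet. Members were taken by symbol: every probe set of the Affymetrix Porcine array to which the platform table gives a single gene symbol made of the letters PSM, a letter from A to G and a digit. The rule found 46 probe sets for 40 genes among 23999 probe sets tested and 6765 genes with a single symbol, and where a gene had several probe sets the one with the highest mean over all arrays stood for it. RefSeq lists 48 pig genes of this naming, of which 8 (PSMA8, PSMB9, PSMB11, PSMC4, PSMD7, PSMD9, PSMG2 and PSMG4) have no probe set under this rule and were not analysed here.

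Muscle from 11 purebred Duroc gilts was arrayed, 1 array per pig, from 5 gilts on the LP diet and 6 on the HP diet. The LP diet held 128 g/kg crude protein and 7 g/kg lysine, against 217 g/kg crude protein and 13 g/kg lysine in the HP diet, the diets had like energy content, and both were fed for 63 days until slaughter. The pigs were young females in the finishing phase. Pen, weight block and day of slaughter are not given pig by pig, so their part cannot be told apart from that of the diet. Levels are log2 signals, in which a step of 1 is a doubling of signal, and all differences are LP minus HP. A probe set's level depends on its probes as well as on its transcript, so levels are compared between pigs and not between genes.

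The proteasome degrades proteins that carry a chain of ubiquitin. Its barrel-shaped core has outer rings of alpha subunits (PSMA genes), which guard the entrance, and inner rings of beta subunits (PSMB genes), some of which cut the substrate. A cap made of a base of ATPases (PSMC genes and several PSMD proteins) and a lid (other PSMD proteins) recognises, deubiquitinates and unfolds the substrate. In skeletal muscle this system breaks down myofibrillar and other proteins, and its genes rise in many forms of muscle wasting.

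None of the 40 proteasome genes passed the test between the diets. At limma *P* of 0.05 or less, 0 members passed upwards in LP and 0 downwards. Of all 23999 probe sets, 1227 (5.11%) passed, 515 upwards (2.15%) and 712 downwards (2.97%). Of the 6765 genes with a single symbol, each read like the members by its brightest probe set, 320 (4.73%) passed, 106 upwards (1.57%) and 214 downwards (3.16%). The smallest *P* among the members was 0.22, for PSMD5, and the smallest Benjamini-Hochberg adjusted *P* was 0.968. The exact permutation test over all 462 ways to assign 5 of the 11 arrays to LP likewise passed 0 of the 40, with a smallest *P* of 0.238. After Benjamini-Hochberg adjustment, 0 of the 23999 probe sets passed in limma either. LP and HP arrays overlapped for every one of the 40 genes, and they did not overlap for 139 of all probe sets (0.579%).

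The differences ranged from -0.26 to 0.15 with a median of -0.07, beside a median of -0.02 over all probe sets and -0.04 over all genes with a single symbol. Of the 40 genes, 33 lay below 0 and 7 above on the deposited levels, but 16 lay below 0 and 24 above after quantile normalization (median 0.02), and after cyclic loess the split was 20 and 20. The split thus changed with the normalization, and no sign can be given to the family as a whole. When HP replicates 1, 2 and 4, whose spike-in levels were the highest, were left out, 37 of 40 lay above 0. These were also the HP arrays with the highest median level of the members (0.12, 0.24 and 0.42, centred as described below). Leaving them out therefore raises LP minus HP by construction, and this split is no evidence on the sign. For 39 of the 40 genes the 95% interval of the difference lay inside a 1.5-fold change in either direction (0.58 on the log2 scale), the exception being PSMD5 with -0.70 to 0.18. Among genes with a mean above the median of all probe sets, 3503 of 4672 had an interval that narrow. These intervals are not adjusted for the number of genes. In bulk muscle, fewer cells of a type and less RNA per cell cannot be told apart.

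**Figure D1:**
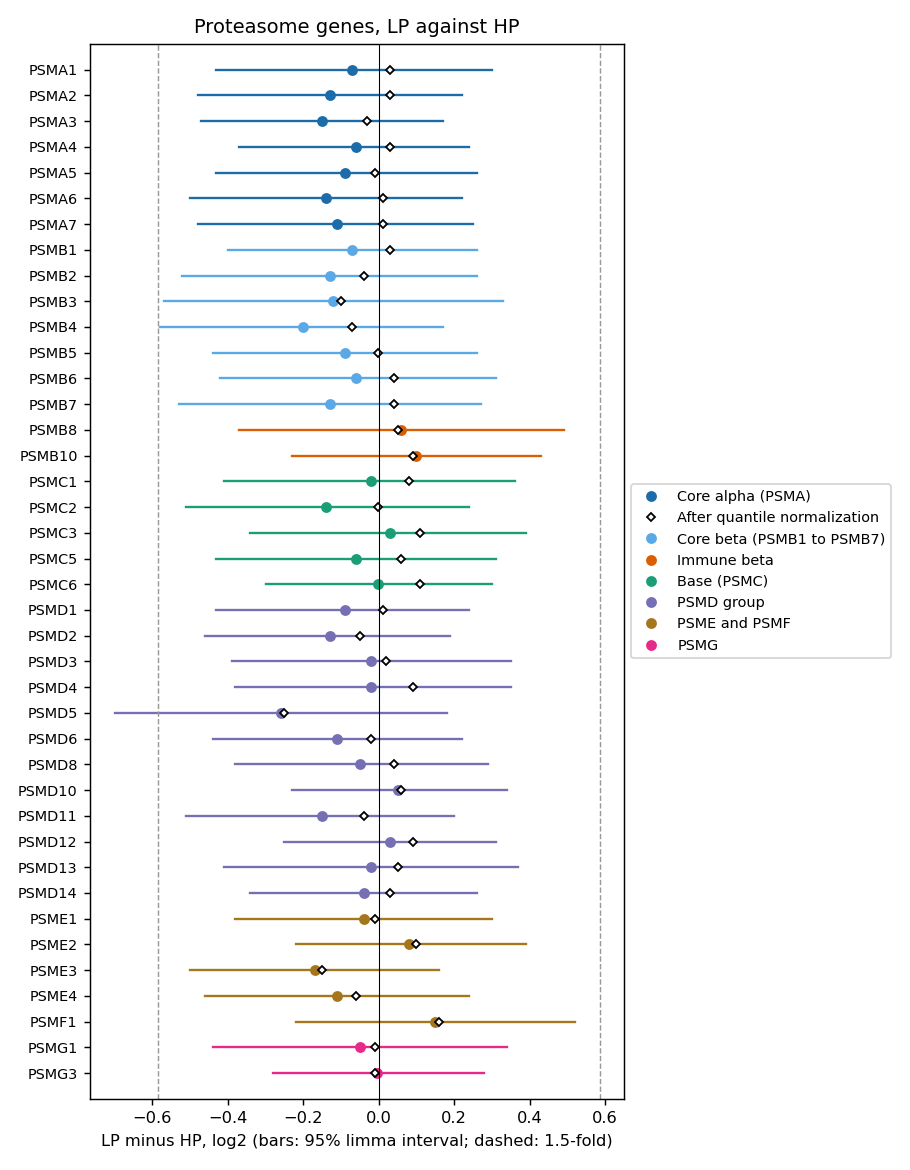
Difference in log2 level, LP minus HP, of each of the 40 proteasome genes with its 95% limma interval, grouped by place in the particle; the open marks give the difference after quantile normalization and the dashed lines a 1.5-fold change. Every interval spans 0, and only that of PSMD5 (-0.70 to 0.18) reaches past a 1.5-fold change; on the deposited levels 33 of 40 points lie below 0, and after quantile normalization 16 do.

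The arrays differed by a level common to the members, which varied more within HP than between the diets. Each gene's levels were centred on its mean over the 11 arrays and the median over the 40 genes was taken per array. This median was 0.01, -0.12, -0.10, 0.13 and -0.15 in LP replicates 1 to 5, against a lowest of -0.33, a middle of 0.05 and a highest of 0.42 in HP. HP replicate 4 had the highest level of 28 of the 40 genes and HP replicate 3 the lowest level of 25. The median SD of a member was 0.15 over the LP arrays and 0.31 over the HP arrays, and the HP SD was the larger for 35 of 40 genes. A wider HP spread was not particular to the members. The HP SD was the larger for 4717 of the 6765 genes with a single symbol, with median SDs of 0.22 in LP and 0.30 in HP. For the 10 skeletal muscle markers measured it was the larger in all 10, with median SDs of 0.18 and 0.43. For 30 of 40 genes (75%) all LP arrays lay within the range of the HP arrays, as they did for 2913 of the 6765 genes with a single symbol (43.1%).

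The arrays' hybridisation controls had the same order as this level over the HP arrays, but not over the LP arrays. The mean of 27 spike-in probe sets, which read RNA added in the laboratory and not pig RNA, was 11.43, 11.49, 11.56, 11.77 and 11.64 in LP replicates 1 to 5, against 11.30 (replicate 3) to 12.22 (replicate 4) in HP. It averaged 11.58 ± 0.13 in LP and 11.84 ± 0.40 in HP (SD, n = 5 and 6, exact permutation *P* = 0.186). Within LP, replicate 1 had the lowest spike-in mean (11.43) but a members' level of 0.01. LP replicate 5 had a spike-in mean of 11.64 but the lowest members' level of its diet, -0.15. After quantile normalization, which gives all arrays the same distribution, the median SD of the members was 0.15 in LP and 0.13 in HP, and 12 of 40 genes (30%) had all LP arrays within the HP range, beside 32.9% of the genes with a single symbol. The 3′ minus 5′ signal of actin, a sign of RNA integrity, averaged 5.53 ± 0.35 in LP and 5.96 ± 0.42 in HP (SD, exact permutation *P* = 0.123). Over HP it was lowest in replicate 3 (5.38) and highest in replicates 2 and 4 (6.46 each), as the members' level was. In LP replicates 1 to 5 it was 5.12, 5.36, 5.39, 5.93 and 5.86. After the normalization HP replicate 4 had the highest level of 13 genes and LP replicate 1 of 17. The part of the spike-in level and of RNA integrity in the members' levels was not tested beyond these values.

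The alpha subunits form the ring that opens and shuts the core. All 7 PSMA genes lay between -0.15 and -0.06 on the deposited levels (median -0.11), 0 of 7 passed the test, and after quantile normalization 5 of the 7 were above 0 (median 0.01). PSMA3, the alpha gene with the smallest *P*, had levels of 12.23, 12.18, 12.13, 12.41 and 12.23 in LP, against a lowest of 11.92, a median of 12.47 and a highest of 12.71 in HP. Its difference was -0.15 ± 0.15 (SE, exact permutation *P* = 0.303). All LP pigs sat inside the HP range.

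PSMA2, another ring subunit, had levels of 12.57, 12.47, 12.54, 12.78 and 12.52 in LP, against a lowest of 12.27, a median of 12.78 and a highest of 13.12 in HP, a difference of -0.13 ± 0.16 (SE, exact permutation *P* = 0.394). PSMA5 had 11.94, 11.64, 11.66, 11.80 and 11.53 in LP, against a lowest of 11.49, a median of 11.79 and a highest of 12.24 in HP, a difference of -0.09 ± 0.16 (SE, exact permutation *P* = 0.567). For both genes the HP range again enclosed every LP pig. PSMA6, read by a probe set that carries this symbol in the platform table, had 12.49, 12.45, 12.48, 12.75 and 12.63 in LP, against a lowest of 12.19, a median of 12.72 and a highest of 13.12 in HP. It differed by -0.14 ± 0.16 (SE, limma *P* = 0.4, exact permutation *P* = 0.383). The LP pigs of PSMA6 were likewise all inside the HP range.

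A further probe set is called PSMA6 in the annotation that the study used, but it has no symbol in the platform table and so stands outside the rule. It had levels of 7.62, 7.24, 7.94, 7.70 and 6.99 in LP, against a lowest of 6.79, a median of 7.03 and a highest of 7.45 in HP. Means were 7.50 ± 0.38 in LP and 7.05 ± 0.23 in HP (SD), a difference of 0.44 ± 0.19 (SE, limma *P* = 0.0363, adjusted *P* = 0.962; exact permutation *P* = 0.0455). LP pigs 1, 3 and 4 were above every HP pig, LP pig 5 was below the HP median and LP pig 2 stood between. The call was lost when LP replicate 1 (0.41), 3 (0.33) or 4 (0.39), or HP replicate 1 (0.41), 4 (0.39), 5 (0.44) or 6 (0.43), was left out. The study chose this probe set on these same pigs, so its *P* is not independent evidence. The platform-annotated and the unannotated probe set thus gave differences of opposite sign on the deposited levels, -0.14 and 0.44, and which transcript the unannotated one reads was not tested.

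The beta subunits line the inside of the core, and PSMB5, PSMB6 and PSMB7 carry the sites that cut the substrate (chymotrypsin-like, caspase-like and trypsin-like activity). All 7 constitutive PSMB genes lay between -0.20 and -0.06 (median -0.12) and 0 of 7 passed, and after quantile normalization 3 were above 0 and the median was -0.0022. PSMB5 had levels of 11.80, 11.67, 11.79, 11.92 and 11.81 in LP, against a lowest of 11.50, a median of 11.91 and a highest of 12.38 in HP, a difference of -0.09 ± 0.16 (SE, exact permutation *P* = 0.595). PSMB6 had 11.61, 11.69, 11.95, 11.96 and 11.66 in LP, against a lowest of 11.35, a median of 11.89 and a highest of 12.21 in HP, a difference of -0.06 ± 0.17 (SE, exact permutation *P* = 0.734). The LP pigs of both lay inside the HP range, with PSMB5 spread over only 0.09 (SD) in LP and 0.32 in HP.

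PSMB7 had levels of 12.58, 12.51, 12.58, 12.84 and 12.50 in LP, against a lowest of 12.32, a median of 12.76 and a highest of 13.16 in HP. Its difference was -0.13 ± 0.18 (SE, exact permutation *P* = 0.465). LP pig 4 stood apart from the other LP pigs, while still below the highest HP pigs. PSMB4, a beta subunit with no cutting site, had 12.37, 12.14, 12.28, 12.53 and 12.11 in LP, against a lowest of 12.08, a median of 12.49 and a highest of 12.92 in HP, and with -0.20 ± 0.17 (SE, exact permutation *P* = 0.238) it lay farthest below 0 of the core genes. PSMB3, also without a cutting site, had 9.23, 8.79, 8.61, 8.88 and 8.76 in LP, against a lowest of 8.48, a median of 8.90 and a highest of 9.68 in HP, a difference of -0.12 ± 0.21 (SE, exact permutation *P* = 0.615). In neither gene did an LP pig leave the HP range.

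In cells exposed to interferon gamma, the cutting subunits are replaced by immune counterparts: PSMB8 takes the place of PSMB5 and PSMB10 that of PSMB7, which changes the peptides made for antigen presentation. Both genes lay above 0, by 0.06 and 0.10, and 0 of 2 passed. PSMB8 had levels of 8.33, 8.23, 7.93, 8.05 and 7.60 in LP, against a lowest of 7.47, a median of 7.89 and a highest of 8.49 in HP (difference 0.06 ± 0.20 SE, exact permutation *P* = 0.779). PSMB10 had 6.98, 7.45, 7.59, 7.46 and 7.23 in LP, against a lowest of 7.02, a median of 7.17 and a highest of 7.63 in HP (difference 0.10 ± 0.15 SE, exact permutation *P* = 0.494). LP pig 1 had the lowest PSMB10 level of all 11 pigs, and the highest PSMB8 level within LP.

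Each immune subunit was also set against the one it replaces, within each pig. The replaced subunits followed the members' common level (r of 0.93 for PSMB5 and 0.96 for PSMB7, diet means removed). The immune ones did so less (0.21 for PSMB8 and 0.28 for PSMB10). The measure subtracts the replaced subunit, so it holds that level with its sign turned. Its SD over HP was 0.35 for PSMB10 and PSMB7, against 0.22 for PSMB10 alone. For PSMB8 and PSMB5 it was 0.40, against 0.35 for PSMB8 alone. This measure was chosen after the levels were seen, and only its change between pigs has a meaning, since its 2 probe sets differ. The log2 difference of PSMB8 and PSMB5 was -3.47, -3.44, -3.86, -3.88 and -4.21 in LP, against a lowest of -4.49, a median of -3.94 and a highest of -3.38 in HP. For PSMB10 and PSMB7 it was -5.60, -5.06, -4.99, -5.38 and -5.28 in LP, against a lowest of -5.93, a median of -5.55 and a highest of -4.99 in HP. LP pigs were spread over most of the HP range in both measures. LP exceeded HP by 0.14 for the PSMB8 measure (exact permutation *P* = 0.515, adjusted over the 2 measures 0.515) and by 0.23 for the PSMB10 measure (exact permutation *P* = 0.242, adjusted 0.484). After quantile normalization both differences were 0.05, with exact permutation *P* of 0.764 and 0.719.

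**Figure D2:**
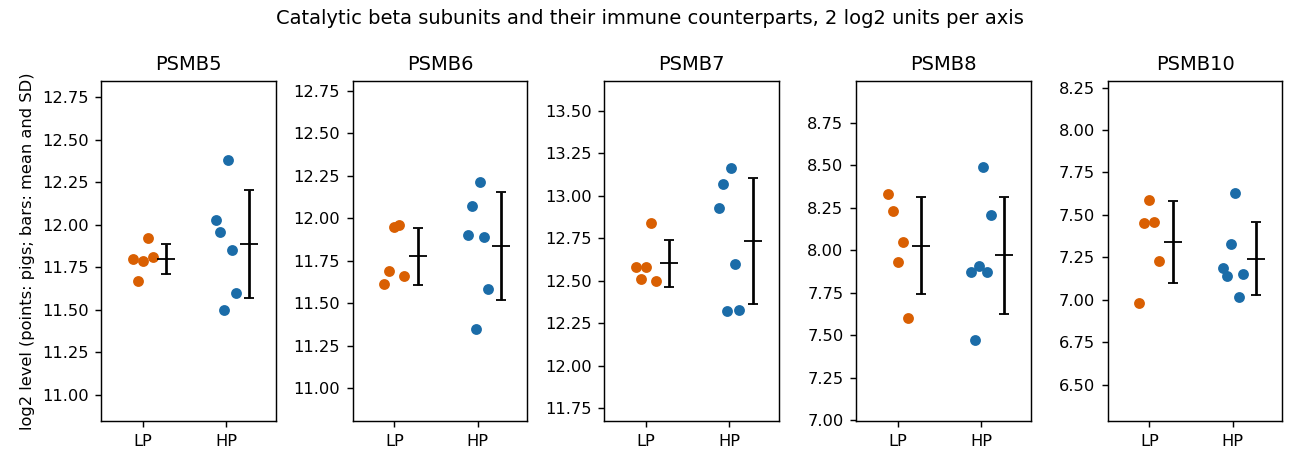
Log2 level in each pig, LP left of HP, of the cutting subunits PSMB5, PSMB6 and PSMB7 and of the immune subunits PSMB8 and PSMB10; points are single pigs and bars the mean with SD (n = 5 LP and 6 HP). The groups overlap in every panel, and the HP spread of PSMB5 (SD 0.32) is wider than that of LP (SD 0.09).

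The PSMC ATPases ring the base of the cap and pull the substrate into the core. Of 5 genes 0 passed, 4 lay below 0 and 1 above (median -0.02), whereas 4 were above 0 after quantile normalization (median 0.08). PSMC2 had levels of 12.35, 12.24, 12.27, 12.47 and 12.17 in LP, against a lowest of 11.97, a median of 12.50 and a highest of 12.90 in HP, a difference of -0.14 ± 0.17 (SE, exact permutation *P* = 0.442). PSMC3 had 11.61, 11.52, 11.65, 11.76 and 11.39 in LP, against a lowest of 11.17, a median of 11.55 and a highest of 11.99 in HP, a difference of 0.03 ± 0.17 (SE, exact permutation *P* = 0.872). In both genes the HP range enclosed all LP pigs. PSMC5 had 12.18, 12.17, 12.25, 12.44 and 12.20 in LP, against a lowest of 11.92, a median of 12.37 and a highest of 12.75 in HP (difference -0.06 ± 0.17 SE, exact permutation *P* = 0.669). The remaining 2, PSMC1 and PSMC6, differed by -0.02 and -0.0015.

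The 12 PSMD genes encode the scaffold of the base (PSMD1 and PSMD2), a ubiquitin receptor (PSMD4), the deubiquitinase that strips the ubiquitin chain (PSMD14), other lid subunits (PSMD3, PSMD6, PSMD8, PSMD11, PSMD12 and PSMD13) and chaperones of base assembly that are absent from the finished particle (PSMD5 and PSMD10). None of the 12 passed, 10 lay below 0 and 2 above (median -0.04), and 8 were above 0 after quantile normalization (median 0.02). PSMD5 had levels of 9.21, 9.18, 9.16, 9.60 and 9.84 in LP, against a lowest of 9.02, a median of 9.77 and a highest of 9.91 in HP. It averaged 9.40 ± 0.31 in LP and 9.66 ± 0.34 in HP (SD), a difference of -0.26 ± 0.20 (SE, limma *P* = 0.22, exact permutation *P* = 0.24), and its value was near the same after quantile normalization (-0.25). LP pigs 1, 2 and 3 lay below all HP pigs but replicate 3, and leaving out HP replicate 3 put PSMD5 past the threshold (-0.39).

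PSMD10, the other base chaperone, showed the reverse spread. It had 9.54, 9.09, 9.37, 9.57 and 9.07 in LP, against a lowest of 9.16, a median of 9.28 and a highest of 9.44 in HP, a difference of 0.05 ± 0.13 (SE, exact permutation *P* = 0.619). LP pigs stood both above and below the whole HP range. PSMD11, a lid subunit whose raised level is known in human stem cells to increase proteasome assembly, had 12.15, 12.01, 11.99, 12.28 and 12.06 in LP, against a lowest of 11.78, a median of 12.26 and a highest of 12.73 in HP, a difference of -0.15 ± 0.16 (SE, exact permutation *P* = 0.353). Its LP pigs all lay inside the HP range.

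PSMD1 was among the genes that the study measured by quantitative PCR. The study chose it on these same pigs, by the probe set used here, as a non-changing gene. Its small difference on the arrays is therefore not independent evidence. In the study's quantitative PCR its level was higher in LP, opposite in sign to the array difference given below, and not significant. The PSMD1 primers are shown because they give the stretch of transcript that was tested there. They come from the study's supplementary primer list, 5′ to 3′, and RefSeq places the pig gene on chromosome 15.
PSMD1 forward: aatgcctgtgaggaaattcg
PSMD1 reverse: ccaagtcgtgtgaaagagca
On the arrays PSMD1 had levels of 12.21, 11.98, 12.09, 12.26 and 11.72 in LP, against a lowest of 11.83, a median of 12.16 and a highest of 12.49 in HP. The difference was -0.09 ± 0.15 (SE, exact permutation *P* = 0.535). LP pig 5 was the lowest of all 11 pigs and the other LP pigs lay among the HP pigs. The second PSMD1 probe set differed by 0.10 ± 0.15 (SE, exact permutation *P* = 0.442), so that the 2 probe sets lay on opposite sides of 0 without either passing.

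The other genes with several probe sets gave like results. The 3 probe sets of PSMC2 differed by -0.14, -0.04 and 0.02, the 3 of PSMD11 by -0.15, -0.14 and -0.05, and the 2 of PSMF1 by 0.15 and 0.08. Over all 46 probe sets, 0 passed, and every one was above the highest negative control on all 11 arrays.

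Activators can take the place of the cap. PSME1 and PSME2 together form an interferon-inducible ring on the core, PSME3 forms a related ring in the nucleus and PSME4 is a large single-chain activator. None of the 4 passed, 3 lay below 0 and 1 above both on the deposited levels (median -0.08) and after quantile normalization (median -0.03). PSME3 had levels of 10.14, 9.89, 9.95, 10.31 and 9.85 in LP, against a lowest of 9.87, a median of 10.17 and a highest of 10.60 in HP, a difference of -0.17 ± 0.15 (SE, exact permutation *P* = 0.255). PSME4 had 11.02, 11.14, 11.06, 11.21 and 11.19 in LP, against a lowest of 10.87, a median of 11.25 and a highest of 11.63 in HP, a difference of -0.11 ± 0.16 (SE, exact permutation *P* = 0.463). LP pig 5 was just below the lowest HP pig for PSME3, and the LP pigs of PSME4 were close together inside the HP range. The interferon-inducible pair differed by -0.04 (PSME1) and 0.08 (PSME2).

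PSMF1 encodes a protein first described as an inhibitor of the core. It had levels of 8.44, 8.69, 8.72, 8.95 and 8.47 in LP, against a lowest of 8.14, a median of 8.49 and a highest of 8.84 in HP, and its difference of 0.15 ± 0.17 was the highest of the 40 (SE, limma *P* = 0.396, exact permutation *P* = 0.37). LP pig 4 was above every HP pig and the rest overlapped, and without HP replicates 1, 2 and 4 the gene passed the threshold (0.41). Those replicates also had the highest PSMF1 levels of HP, so leaving them out raises its difference by construction. PSMG1 and PSMG3 are chaperones with which the alpha ring is built. PSMG1 had 10.12, 10.61, 10.90, 10.75 and 10.76 in LP, against a lowest of 10.24, a median of 10.78 and a highest of 10.94 in HP, a difference of -0.05 ± 0.18 (SE, exact permutation *P* = 0.786). PSMG3 had 8.58, 8.41, 8.61, 8.77 and 8.18 in LP, against a lowest of 8.37, a median of 8.50 and a highest of 8.69 in HP, a difference of -0.0038 ± 0.13 (SE, exact permutation *P* = 0.978). LP pig 1 was the lowest of all pigs for PSMG1, and for PSMG3 the LP pigs spread past the HP range on both sides.

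**Figure D3:**
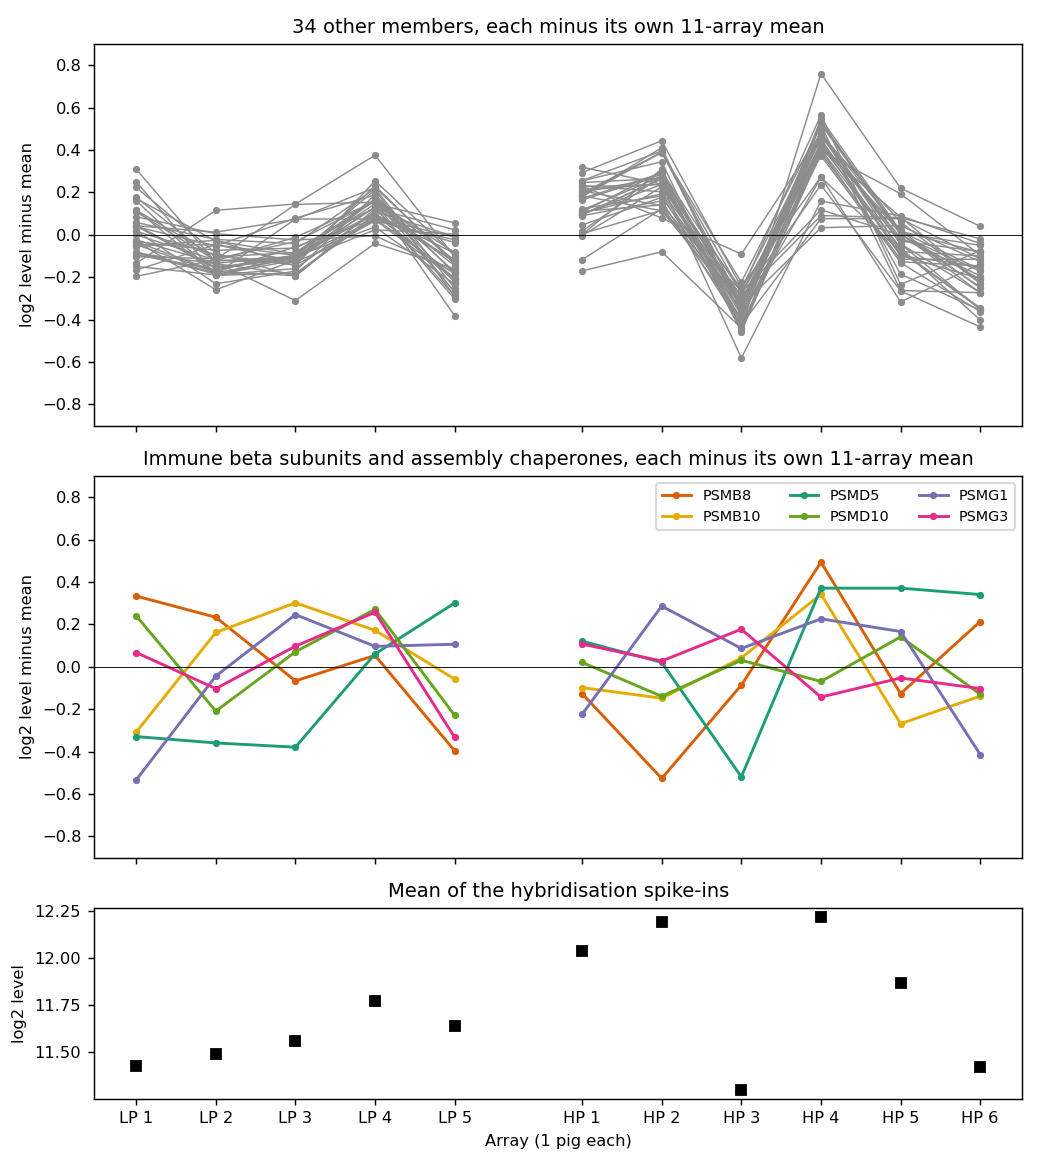
Log2 level minus the gene's mean over the 11 arrays, per array with LP left of HP, for 34 members (top), for the immune subunits and assembly chaperones (middle), and the mean log2 level of the spike-ins (bottom). Lines are genes, joined only so that a gene can be followed, and most of the 34 are low on HP replicate 3 and high on HP replicate 4, where the spike-ins are at 11.30 and 12.22.

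The genes' levels moved together from pig to pig when the arrays of both diets were pooled. Neither diet was taken alone, and the HP arrays weigh more, with a median SD of a member of 0.31 against 0.15 in LP. With each diet's mean removed, the median correlation over the 780 pairs of members across the 11 arrays was 0.75. It was 0.21 over pairs of genes with a mean above the median of all probe sets. This wider set holds the members too and was not matched to them in signal, so the part of signal strength in the gap was not tested. For the 31 genes of the PSMA, constitutive PSMB, PSMC and PSMD groups, with the chaperones PSMD5 and PSMD10 among them, it was 0.83. After quantile normalization it was 0.35 for the members, 0.43 for the same 31 genes and 0.03 for the wider set. Without HP replicates 3 and 4 it was 0.68 for the members and 0.15 for the wider set. These are descriptions, since the points share arrays, and the spike-in level varied over the same arrays.

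Members did not share this pattern to the same degree. Each gene was compared with the median of the other members across the 11 arrays, diet means removed. The 4 assembly chaperones gave r of 0.36 (PSMD5), 0.15 (PSMD10), 0.23 (PSMG1) and 0.03 (PSMG3), and the immune subunits 0.21 (PSMB8) and 0.28 (PSMB10). The other 34 members, which are parts of the constitutive particle or bind it, ranged from 0.65 (PSMB3) to 0.99 (PSMB4) with a median of 0.93. Among these 34 were the interferon-inducible activators PSME1 (0.84) and PSME2 (0.92), so the split is not one of interferon-inducible against other genes.

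This grouping was made after the values were seen and has no test. After quantile normalization the 6 ranged from -0.37 to 0.46 and the 34 from -0.03 to 0.94, with 9 of the 34 below 0.5, so the ranges then overlapped. When each array was left out in turn, the 6 ranged from -0.28 to 0.56 and the 34 from 0.35 to 0.99. Mean signals of the 6 were 7.29 to 10.65, against 8.57 to 12.67 for the 34, and the part of signal strength in these correlations was not tested.

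**Figure D4:**
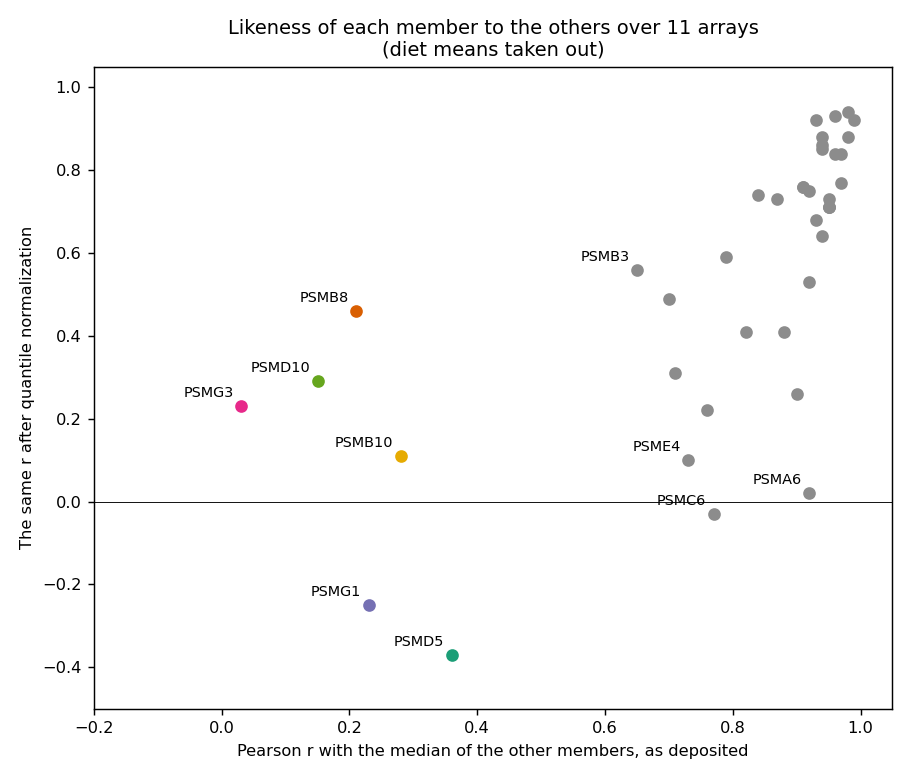
Pearson r of each proteasome gene with the median of the other members across the 11 arrays, diet means removed, on the deposited levels (x axis) and after quantile normalization (y axis). Along x the assembly chaperones and immune subunits (coloured) lie at 0.36 or below and the other 34 genes (grey) at 0.65 or above, whereas along y the ranges overlap (-0.37 to 0.46 and -0.03 to 0.94).

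Genes that work with the proteasome gave a similar count. Of the cofactors and further assembly factors 6 of 14 listed were measured, and of the ubiquitin shuttles and the segregase VCP with its partners 10 of 20. Of the ubiquitin genes and E1 activating enzymes 6 of 10 were measured. Of the E2 family, most of which pass ubiquitin on to substrates, 24 of 33 were. The E1 genes measured were UBA2, UBA3, SAE1 and NAE1, which serve ubiquitin-like proteins. UBA1 and UBA6, which activate ubiquitin itself, were listed but not measured. In each of these 4 lists 0 passed, with medians of -0.01, -0.10, -0.01 and -0.09 on the deposited levels and 0.05, -0.03, 0.03 and -0.03 after quantile normalization, in that order. The polyubiquitin gene UBB averaged 13.18 in LP and 13.43 in HP (-0.25 ± 0.20 SE, exact permutation *P* = 0.229), and its difference after quantile normalization was -0.02. UBA3, which activates the ubiquitin-like NEDD8, was the only gene of these lists to pass after quantile normalization, at 0.28. Under that normalization 405 of the 6765 genes with a single symbol passed. On the deposited levels UBA3 lay at 0.21, short of the threshold. Of 12 listed transcription regulators of proteasome genes 4 were measured (NFYB, NFYC, STAT3 and FOXO3), and 0 passed (median -0.11, and -0.07 after quantile normalization). FOXO3 was above the negative controls on only 7 arrays. NFE2L1 and NFE2L2 were among the listed regulators that were not measured, so nothing is known of them here.

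Interferon signalling and antigen processing, the setting in which the immune subunits are induced, gave 0 calls among 20 measured of 26 listed genes (median -0.02, and 0.01 after quantile normalization). TAP1, the peptide transporter subunit, averaged 8.89 in LP and 8.71 in HP (0.18 ± 0.18 SE, exact permutation *P* = 0.344). ISG15, an interferon-induced ubiquitin-like protein, had 6.51, 7.05, 6.24, 6.72 and 6.60 in LP, against a lowest of 3.77, a median of 5.98 and a highest of 6.80 in HP, a difference of 1.02 ± 0.48 (SE, limma *P* = 0.0561, exact permutation *P* = 0.0649). Its HP pigs were widely spread and its LP pigs close together, and it did not pass.

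The tissue and the other cells it holds were checked by marker lists. Of 10 skeletal muscle markers measured, 0 passed and all 10 lay below 0 on the deposited levels (median -0.25) and after cyclic loess (median -0.10), but 6 above 0 after quantile normalization (median 0.01). Their summed level was 16.47 to 16.92 in LP and 16.39 to 17.36 in HP. None of 6 adipocyte, 8 endothelial, 5 fibroblast and 3 red blood cell markers passed in limma. Their summed levels overlapped between the diets (12.82 to 13.34 in LP and 12.73 to 13.47 in HP for adipocytes, 12.62 to 12.88 in LP and 12.56 to 13.07 in HP for fibroblasts). These levels do not measure fat content, and the study found more intramuscular fat in this muscle on the LP diet. Of the 6 adipocyte markers 4 lay above 0 and 2 below (median 0.05), with LEP, which encodes leptin, at 0.74 ± 0.34 (SE, limma *P* = 0.0533, exact permutation *P* = 0.0887). Of the 5 fibroblast markers 4 lay below 0, with a median of -0.28, and of -0.24 after quantile normalization and after cyclic loess. DCN, which encodes the matrix proteoglycan decorin, differed by -0.28 ± 0.13 (SE, limma *P* = 0.0525) and passed the exact permutation test alone (*P* = 0.0346), with -0.19 after quantile normalization. Of 13 leukocyte markers, which stand for cells that normally express immune subunits, 1 was lower in LP (CD79B, at or under the negative controls on all arrays), and the summed level was 11.07 to 11.34 in LP and 10.77 to 11.87 in HP. Their part in the proteasome levels was not tested.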

How the data were processed

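RNA of 11 *M. semimembranosus* samples (5 LP, 6 HP) was hybridised to Affymetrix Porcine arrays, 1 array per pig. The authors deposited log2 expression levels, pre-processed and normalised in R and Bioconductor. How arrays were scaled to each other is not given in the sources used here, but all 11 medians were equal (6.72). The study's own test, puma, needs probe-level uncertainty that these levels do not carry, so limma was used. The authors' own fold changes and probabilities were not used. No 2 arrays held identical values (0 pairs). Of 24123 probe sets, 124 controls were left out. The platform table gave 1 symbol to 10069 probe sets, several to 198 and none to 13732, and the Entrez IDs of all 40 members carried the same symbol in RefSeq (Sscrofa11.1).

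All 23999 probe sets were fitted at once with limma 3.58.1 (lmFit and eBayes, R 4.3.3) on diet alone, with *P* of 0.05 or less as the call, the threshold of the study, and Benjamini-Hochberg adjustment beside it; the code was tested on simulated data. Single genes were also tested by an exact two-sided permutation test over 462 splits, whose smallest *P* is 0.00216. The number of arrays limits the precision. A probe set counted as above background where it exceeded the highest of 23 negative controls of its array (1.96 to 3.58); 74.9 to 85.3% of probe sets did. Tables were made in Python 3.11.15. Genes given with values were, in each subgroup, those with the smallest *P*, the highest and the lowest signal, the cutting subunits and their immune counterparts, PSMA6 and PSMD1, which the study names, and members with an array far from its group. VCP, UBB, UBA3, TAP1, ISG15, LEP and DCN were named after their values were seen. Alternatives were quantile and cyclic loess normalization (both in limma), a filter and a floor on dim signals, a trended prior, array weights, a replicate block, the mean of a gene's probe sets, and leaving out arrays. The members and all lists were chosen with earlier results of these data known. Replicates are separate pigs. Promoter and protein sequences were not used here.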

Additional observations from a re-analysis of the deposited data

Results flagged for a closer look

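Of 80 sets of values (40 genes, each diet), 2 had an array farther from the rest than Dixon's 95% critical value (0.71 for 5 arrays), a rule by which chance marks about 1 set in 20. Both were the same pig: LP replicate 4 had the highest LP level of PSMB7, 12.84 with the next LP pig at 12.58, and of PSMC5, 12.44 with the next at 12.25. Without this pig the differences were -0.19 for PSMB7 and -0.11 for PSMC5, and neither passed in limma.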

How the results depend on the processing

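The count of proteasome genes called stayed at 0 under every alternative but those named here. Without HP replicate 3, 1 gene was lower in LP (PSMD5, -0.39), so that leaving out single arrays gave 0 to 1 lower and 0 higher. Without HP replicates 1, 2 and 4, whose spike-in levels were the highest, 1 gene was higher (PSMF1, 0.41). In that setting 37 of 40 genes lay above 0, with a median of 0.14. These replicates also had the highest members' levels of HP, so a rise of LP minus HP was fixed by their choice. The median lay between -0.15 and 0.0029 when single arrays were left out, the upper value without HP replicate 4. Over all probe sets, 1227 were called, 710 of 12000 with those below the median signal left out, 1884 without HP replicates 1, 2 and 4, and 1066 to 1521 without single arrays; the cause was not tested beyond the smaller number of probe sets or arrays.

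Replicate numbers are shared by LP and HP in the labels but nothing says that they pair the pigs. Deviations of same-numbered pigs correlated at -0.0685 to 0.0848, and only number 5 was closest to its own number. With the replicate number as a block, 1232 probe sets and 0 proteasome genes were called, with a median of -0.12, and the probe set outside the rule that the study calls PSMA6 lost its call (0.43), as it did without HP replicates 1, 2 and 4 (0.44).

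With 11 arrays, the 95% interval reached past a 1.5-fold change for 1 of 40 genes (PSMD5).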
